A study of Homo sapiens with 18 samples.

Results

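MYC binding sites on which 2 hairpins against the same histone methyltransferase gave opposite calls were examined in MCF10A breast epithelial cells. Of 42343 merged peak regions on chromosomes 1 to 22, 13997 had a MYC peak in all 3 control lists. Of these, 366 met a strict rule for a call with 1 hairpin and not with the other. The first class, called shG9a_4-only here, holds 295 regions with a peak in all 3 lists of the hairpin shG9a_4 and in no list of shG9a_1. The second, called shG9a_1-only, holds 71 regions with a peak in shG9a_1 replicates 2 and 3 and in no shG9a_4 list. Both classes were chosen from the peak calls themselves, so their opposite calls are a description and carry no test.

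MCF10A is an immortalised, non-tumour breast epithelial line, and every sample here carried the same 2 added constructs, pBABE-hygro-MYC for ectopic MYC and pMN-IRES-GFP-PI3KH1047R for a mutant PI3K. A further, doxycycline-inducible construct held the hairpin: pLKO-tetON-puro-shSCR (scramble control, shSCR), pLKO-tetON-puro-shG9a 1 (shG9a_1) or pLKO-tetON-puro-shG9a 4 (shG9a_4). All cells, controls included, received doxycycline at 2 µg/mL for 72 h before chromatin immunoprecipitation with the MYC antibody N262 and sequencing (ChIP-seq). The series design speaks of biological replicates, 3 for each hairpin, and each has 1 peak list. The labels used here do not say how far each hairpin lowered G9a, nor whether the cells were clonal.

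MYC is a transcription factor that pairs with MAX to bind E-box DNA and open promoters, and when overexpressed it also spreads to weaker sites. G9a (EHMT2) methylates histone H3 on lysine 9, a mark tied to gene silencing. A pair of hairpins against 1 gene is commonly used because each hairpin can also act on other RNAs. The genes and DNA sequence at these positions were not analysed here.

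The lists held 19781 to 34051 peaks in shSCR, 11044 to 17206 in shG9a_4, and 11309 and 12896 in shG9a_1 replicates 2 and 3, all on chromosomes 1 to 22. The list of shG9a_1 replicate 1 held only 111 peaks and called 0.764% of the 13997 regions, against 57.8% and 64.6% in shG9a_1 replicates 2 and 3 and 58.5%, 77.4% and 66.5% in shG9a_4 replicates 1, 2 and 3. It called no member of either class, which the rule fixes for shG9a_4-only regions. Absence from shG9a_1 therefore rests in the main on 2 lists and absence from shG9a_4 on 3. Recovered sequencing depth, relative to the shSCR mean, was 0.841 in shG9a_1 replicate 2 and 1.09 in replicate 3. In shG9a_4 replicates 1, 2 and 3 it was 1.90, 1.05 and 2.65. For shG9a_1 replicate 1 the same estimate was 2.36, but it rests on a shortest peak of 51 bp, where the shortest of the other lists were 130 to 157 bp. Neither quantity separated the hairpins: shG9a_4 replicate 1 had a shorter list than shG9a_1 replicates 2 and 3, and shG9a_4 replicate 2 was slightly less deep than shG9a_1 replicate 3. The part of list length and depth in the counts below was not tested.

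Opposite calls by this rule were few. Looser ones were more frequent, with 1165 regions in exactly 1 shG9a_4 list and no shG9a_1 list. Another 492 were in exactly 1 shG9a_1 list and no shG9a_4 list. Of the 13997 regions, 3524 (25.2%) had a peak in no shG9a_1 list and 1881 (13.4%) in no shG9a_4 list. The shG9a_4-only class made up 2.11% of the 13997 regions and the shG9a_1-only class 0.507%. By comparison 5191 regions (37.1%) were called in all 3 shG9a_4 lists and in shG9a_1 replicates 2 and 3, and 1318 regions were called in no hairpin list. Of the 6558 regions that shG9a_4 called in all its lists, 4.5% were missing from every shG9a_1 list. Of the 6671 that shG9a_1 called in replicates 2 and 3, 1.06% were missing from every shG9a_4 list. These shares are fixed by the rule and are given as a description.

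**Figure D1:**
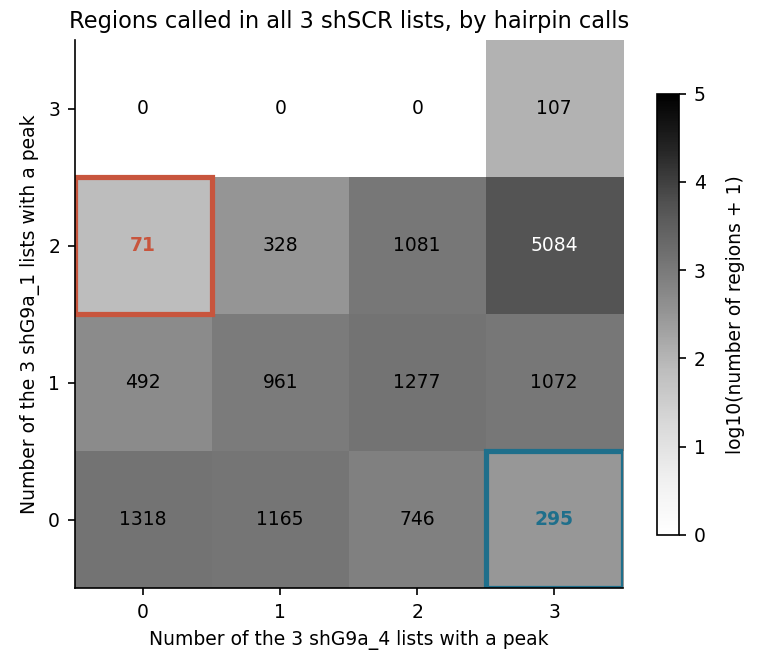
Number of regions called in all 3 shSCR lists (13997 in all) by how many shG9a_4 lists (horizontal axis) and how many shG9a_1 lists (vertical axis) held a peak there; shading is on a log10 scale. The 295 shG9a_4-only regions (blue frame) and the 71 shG9a_1-only regions (red frame) lie on opposite sides of the grid, and the fullest cell holds 5084 regions called in all 3 shG9a_4 lists and 2 shG9a_1 lists.

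Many more regions stood 1 call away from the rule. There were 1072 regions in all 3 shG9a_4 lists and exactly 1 shG9a_1 list, which was replicate 3 for 702 of them and replicate 2 for 370. Another 746 regions had 2 shG9a_4 lists and no shG9a_1 list, and 656 of these were called in shG9a_4 replicate 2. On the other side, 328 regions were called in shG9a_1 replicates 2 and 3 and in 1 shG9a_4 list, which was replicate 2 for 211, replicate 3 for 81 and replicate 1 for 36. Among these 328, shG9a_4 replicate 2, the longest hairpin list, was thus the list that most often kept a region out of the shG9a_1-only class. A further 492 regions had 1 shG9a_1 list and no shG9a_4 list, and that list was replicate 3 for 290 and replicate 2 for 202. Just inside the rule, median strength in shSCR, explained next, was at percentile 60.3 for shG9a_4-only and 50.1 for shG9a_1-only regions. Just outside, the 1072 regions had a median of 69.5, the 746 a median of 53.6, the 328 a median of 60.8 and the 492 a median of 44.2.

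Members of both classes were middling to weak MYC sites in the control cells. Strength was taken as the percentile of a region's best peak, ranked by q-value within each shSCR list and averaged over the 3 lists. In shSCR replicates 1, 2 and 3 the median percentile of shG9a_4-only regions was 67.4, 72.0 and 53.1. For shG9a_1-only regions it was 56.3, 67.0 and 44.3, lower than for shG9a_4-only regions in each of the 3 lists. All 13997 regions had medians of 72.9, 78.0 and 62.1. Regions called with both hairpins had medians of 89.8, 91.7 and 85.7, and regions called with neither 41.0, 48.3 and 28.4. Both classes therefore lay between the sites that both hairpins kept and those that neither kept, in every shSCR list.

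The share of opposite calls differed along the range of strength. For shG9a_4-only regions it was 1.5% in the weakest decile of the 13997 regions, highest at 3.57% in decile 4, 2.93% in decile 7, 0.929% in decile 8 and 0% in the strongest decile. shG9a_1-only regions peaked in decile 2, at 1.43%, and had 1 region each in deciles 7 and 8 and none above. Over the same deciles the share called with both hairpins climbed from 0.786 to 99.3%, and the share called with neither fell from 39.9 to 0%. Opposite calls of either class were thus absent from the strongest decile.

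**Figure D2:**
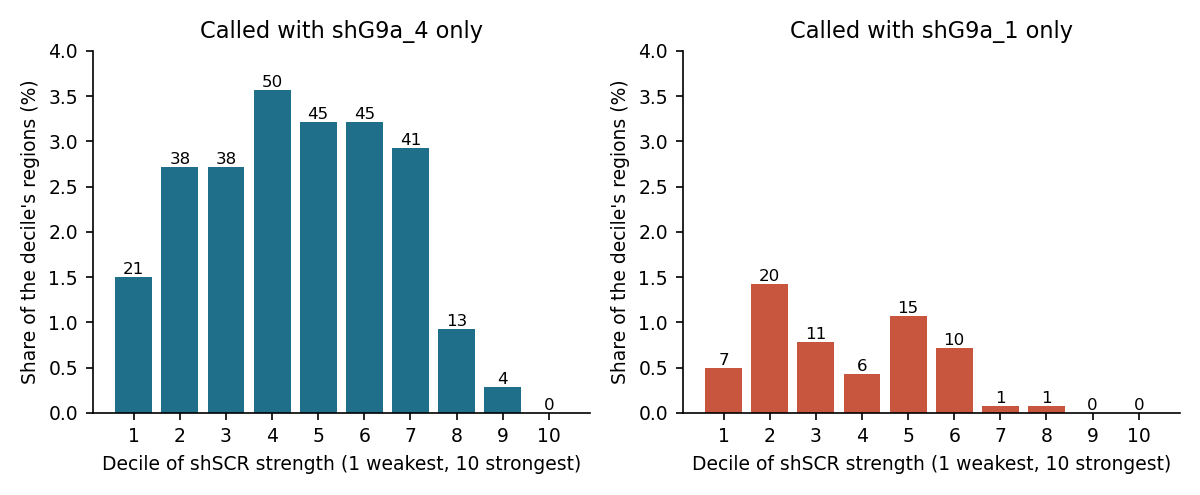
Share of regions (vertical axis, %) in each decile of shSCR strength (horizontal axis, about 1400 regions each) that were called with shG9a_4 only (left, blue) or with shG9a_1 only (right, red); the number above each bar is the count of regions. The left bars start at 1.5%, lie between 2.71 and 3.57% in deciles 2 to 7 and reach 0 in decile 10, while the right bars end at decile 8.

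In width the classes lay close together, with medians of 452 bp for shG9a_4-only and 451 bp for shG9a_1-only merged regions. Regions called with both hairpins had a median of 743 bp and those called with neither 334 bp. Only 11 shG9a_4-only (3.73%) and 4 shG9a_1-only regions (5.63%) were 1 kb or wider, against 12.6% of all 13997. The deposited folds of a region differed between the 3 shSCR lists by a median coefficient of variation of 23.8% in shG9a_4-only and 18.3% in shG9a_1-only regions, beside 22.9% over all 13997.

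The peaks that carried the opposite calls were small. The median pileup, the whole number of fragments stacked at the summit, was 12 fragments in shG9a_4 replicate 1, 11 in replicate 2 and 14 in replicate 3 at shG9a_4-only regions. At shG9a_1-only regions it was 8 in shG9a_1 replicate 2 and 9 in replicate 3. A pileup of 11 has a 95% exact Poisson interval of 5.49 to 19.7 fragments and one of 8 an interval of 3.45 to 15.8, for counting error only. In the shSCR lists the same regions had median pileups of 15, 18 and 11 (shG9a_4-only) and of 12, 16 and 10 (shG9a_1-only). Most of the members' calls therefore rested on few fragments. The highest pileups at shG9a_4-only regions were, however, 38, 23 and 33 in shG9a_4 replicates 1, 2 and 3. Over all regions called in every shSCR list, median pileups were 15, 14 and 18 in shG9a_4 replicates 1, 2 and 3. In shG9a_1 replicates 2 and 3 they were 11 and 13. Members had lower medians in each of these libraries, but low pileups were common in these lists and no trait of the members alone.

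Within the calling hairpin's lists, members ranked low. The median percentile of shG9a_4-only regions was 38.9, 48.0 and 37.7 in shG9a_4 replicates 1, 2 and 3. That of shG9a_1-only regions was 33.6 and 35.1 in shG9a_1 replicates 2 and 3. At regions called with both hairpins it was 73.0, 83.2 and 77.4 in the shG9a_4 lists and 73.1 and 77.5 in those of shG9a_1. Of the 295 shG9a_4-only regions, 85 were under percentile 50 in all 3 shG9a_4 lists, 21 were at or above it in all 3, and 189 were mixed. Of all 6558 regions called in every shG9a_4 list, 440 were under it in all 3 and 3521 at or above it in all 3. Of the 71 shG9a_1-only regions, 44 were under it in both shG9a_1 lists and 4 were at or above it in both. Of all 6671 regions called in shG9a_1 replicates 2 and 3, these numbers were 1040 and 3652.

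**Figure D3:**
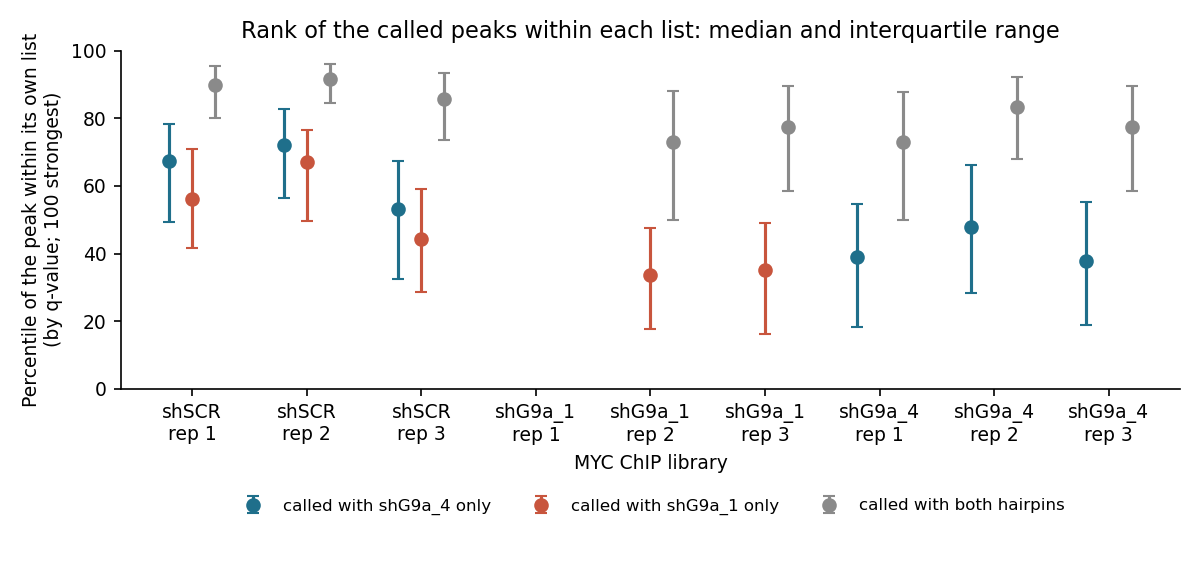
Percentile of the called peak within its own list (vertical axis, 100 the strongest) in each MYC library (horizontal axis), with points for medians and bars for interquartile ranges, for regions called with shG9a_4 only (blue), shG9a_1 only (red) and both hairpins (grey). Blue and red medians lie at 33.6 to 48.0 in the hairpin lists and grey ones at 73.0 to 83.2; the list of shG9a_1 replicate 1, which called no member, is left empty.

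Seen from the hairpin's side, opposite calls thinned out as the peak grew stronger. When the 6558 regions called in all shG9a_4 lists were ordered by their mean percentile there, 18.4% of the weakest decile were missing from shG9a_1. In decile 5 this was 2.29%, in decile 8 it was 0.152%, and in deciles 9 and 10 none was missing from shG9a_1. For the 6671 regions called in shG9a_1 replicates 2 and 3, the weakest decile held 4.04% missing from shG9a_4 and decile 5 held 0.450%. No region in deciles 7 to 10 was missing.

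The lists differed in how low they reached. Pileup was divided by the lowest background of its library, as an allowance for depth. Libraries still differed on this scale. At regions called with both hairpins the median was 22.6, 42.0 and 22.3 in shG9a_4 replicates 1, 2 and 3. In shG9a_1 replicates 2 and 3 it was 35.1 and 35.3. The same value can thus stand for unlike sites in 2 libraries. On this scale, the 5th percentile of all listed peaks was 16.2 in shG9a_1 replicate 2 and 14.5 in replicate 3. In shG9a_4 replicates 1, 2 and 3 it was 11.3, 14.7 and 9.70, and in shG9a_1 replicate 1, with its 111 peaks, it was 22.2. shG9a_4 replicates 1 and 3 thus listed lower values than the shG9a_1 libraries did, but theirs were also lower at regions called with both hairpins. At shG9a_4-only regions, 159 of 295 peaks in shG9a_4 replicate 1 and 212 in replicate 3 were under the 16.2 of shG9a_1 replicate 2, but only 13 in replicate 2 were. All 3 shG9a_4 peaks reached 16.2 in 53 regions (18.0%), while 62.0% of the 6558 regions called in all shG9a_4 lists did so. At shG9a_1-only regions, none of the 71 was under the 5th percentile of shG9a_4 replicates 1 or 3 in either shG9a_1 list. In 55 of 71 both shG9a_1 peaks were also at or above the 14.7 of shG9a_4 replicate 2 (77.5%), while 97.2% of the 6671 regions called in shG9a_1 replicates 2 and 3 were. In both classes a smaller share of members than of all calls of their hairpin reached these heights. The shG9a_1 peaks at most shG9a_1-only regions were thus of heights that the shG9a_4 lists hold at other places. Many shG9a_4-only regions had heights in 2 of the shG9a_4 libraries at which shG9a_1 lists few peaks. Neither comparison allows for the difference between libraries on this scale. These heights are from the calling hairpin's libraries, and none is known where the call is missing. Whether the reach of the lists accounts for either class was not tested.

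**Figure D4:**
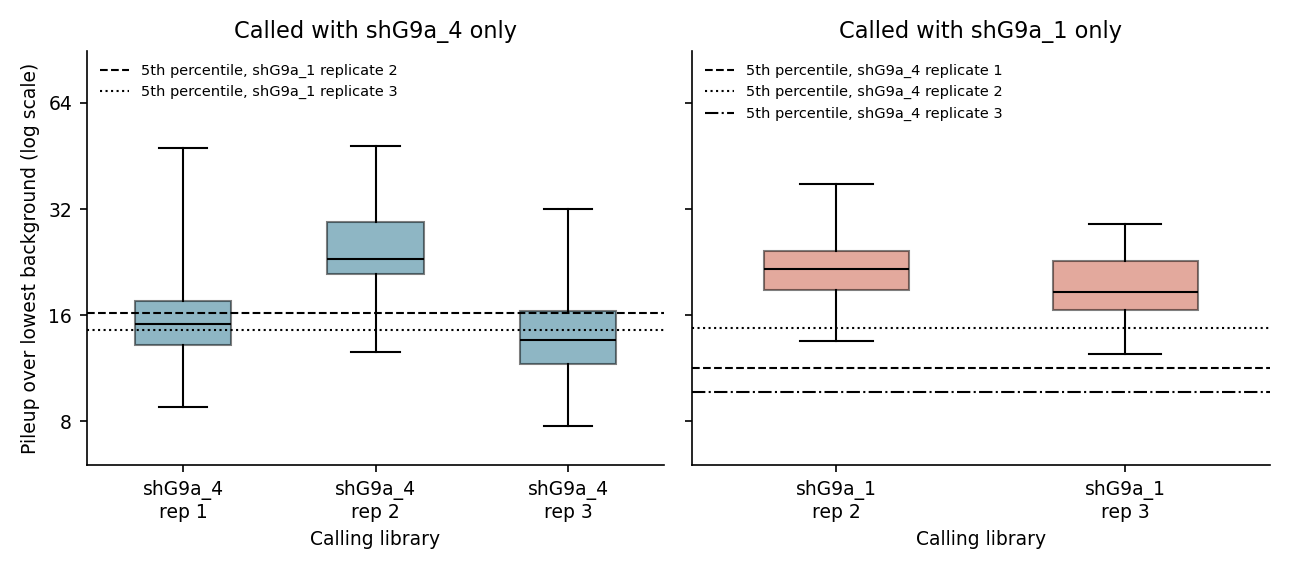
Pileup over the lowest background of the library (vertical axis, log scale) at the 295 shG9a_4-only regions in the 3 shG9a_4 libraries (left) and at the 71 shG9a_1-only regions in shG9a_1 replicates 2 and 3 (right); boxes are interquartile ranges with the median, whiskers the full range, and lines the 5th percentile of all peaks listed in each library of the other hairpin. Medians of 15.1 and 13.6 in shG9a_4 replicates 1 and 3 lie under the 16.2 of shG9a_1 replicate 2, while both boxes on the right lie above all 3 lines. Libraries also differed on this scale at regions called with both hairpins.

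Set against the control on that same scale, shG9a_4-only peaks stood at a median of 0.476, 0.755 and 0.425 of the region's shSCR mean in shG9a_4 replicates 1, 2 and 3. Regions called with both hairpins stood at 0.401, 0.734 and 0.395 in these libraries. shG9a_1-only peaks stood at 0.782 and 0.665 in shG9a_1 replicates 2 and 3, where regions called with both hairpins stood at 0.620 and 0.623. In the shG9a_4 libraries, the members' called peaks were lower than in shSCR for 293, 247 and 295 of 295 regions. Over all 13997 regions this held for 8183 of 8191, 9533 of 10838 and 9302 of 9307 called there. In the shG9a_1 libraries it held for 59 and 70 of 71 members. Over all regions it held there for 7625 of 8095 and 8698 of 9049 called. Peaks lower than in shSCR were thus general and no trait of the members. These ratios hold called peaks only, and no test was made of them.

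The balance between the 2 kinds of call differed from pair to pair of single libraries. Between shG9a_1 replicate 3 and shG9a_4 replicate 2, which were of like depth, 2676 regions were called with shG9a_4 only and 887 with shG9a_1 only. Between shG9a_1 replicate 3 and shG9a_4 replicate 1 the order was turned, with 1480 and 2338. The 6 pairs gave ratios of 0.633 to 4.96, and the 2 highest were those with shG9a_4 replicate 2. Without that library the rule gave 386 shG9a_4-only and 285 shG9a_1-only regions, a ratio of 1.35 in place of 4.15. Without shG9a_1 replicate 2 it gave 666 and 360, and without shG9a_1 replicate 3 it gave 996 and 273. Without shG9a_4 replicate 1 it gave 689 and 107, and without shG9a_4 replicate 3 it gave 558 and 152. The shG9a_1-only count also went from 71 to 117 without shSCR replicate 3. Leaving out shG9a_1 replicate 1 moved neither count.

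The strongest shG9a_4-only region lay at chr1:202545976-202546266 (hg19, as are all positions here) and was 291 bp wide. Its summit pileups were 48, 48 and 28 fragments in shSCR and 38, 23 and 33 in shG9a_4, and no shG9a_1 library listed a peak. It ranked at percentiles 95.8, 81.3 and 80.8 of the shG9a_4 lists, and no other member stayed above 74.3 in all its calling lists. Over the lowest background its shG9a_4 pileups were 47.8, 48.3 and 32.0, all well above the 5th percentiles of the shG9a_1 lists given above. The local background there was high, 5.69, 5.11 and 4.00 times the lowest background of the shSCR libraries, where the class medians were 2.13, 2.04 and 1.73. Across the 4 regions on chromosome 1 among the 10 strongest of each class, it was 2.16 to 5.69 times the lowest.

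The second strongest, at chr5:106212393-106212711, had deposited folds of 20.2, 15.2 and 15.7 in shSCR and of 6.00, 5.01 and 6.46 in shG9a_4. The shSCR and shG9a_4 values do not overlap. Folds have 1 added to pileup and background, however, and so are not on quite the same scale in libraries of unlike depth. The 10 strongest regions per class were picked for high shSCR strength, which partly fixes such an order. Called peaks lower than in shSCR were also general, as given above. A second shG9a_4-only region, at chr5:106211593-106211895, lay only 497 bp away, the shortest distance between members of 1 class. It had folds of 8.69, 9.51 and 9.98 in shSCR and of 6.13, 5.56 and 7.22 in shG9a_4, again without overlap. This stretch therefore lost both its peaks from the shG9a_1 lists and kept both in all shG9a_4 lists.

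The region at chr6:108395803-108396400 had folds of 10.4, 19.4 and 15.4 in shSCR and of 6.75, 6.38 and 5.57 in shG9a_4. That at chr20:47538077-47538693 had 12.9, 15.3 and 12.5 in shSCR and 6.26, 7.29 and 5.87 in shG9a_4. The fifth, at chr3:83549484-83549901, had 17.3, 15.5 and 9.92 in shSCR and 7.55, 6.31 and 7.22 in shG9a_4. In these 3 regions every shG9a_4 fold lay under every shSCR fold, with the same limits. The next, at chr20:5046608-5046959, had 13.8, 15.0 and 10.5 in shSCR and 9.10, 6.72 and 5.07 in shG9a_4, also without overlap. At chr20:36154717-36155151 the folds were 12.1, 10.4 and 13.0 in shSCR and 4.24, 10.0 and 6.01 in shG9a_4, so shG9a_4 replicate 2 came close to the shSCR range. At chr5:127873748-127874295 they were 8.91, 13.5 and 14.7 in shSCR and 6.07, 9.46 and 5.46 in shG9a_4, and replicate 2 lay inside it. The remaining 2 of the 10 strongest were at chr8:23386773-23387360 and chr17:38177546-38178299. Mean folds of the 10 were 11.8 to 17.0 in shSCR and 5.05 to 9.86 in shG9a_4, and widths were 291 to 754 bp.

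Not every strong member was a firm call in shG9a_4. The region on chromosome 8 had pileups of 18, 21 and 22 fragments in shSCR, and of 9, 13 and 15 in shG9a_4. It ranked at percentile 2.25 of the shG9a_4 replicate 1 list. The one on chromosome 17 had 29, 24 and 14 fragments in shSCR and 9, 6 and 15 in shG9a_4, with percentiles of 6.44, 2.35 and 49.1. Both stood close to the caller's limit in at least 1 shG9a_4 library. The 5 weakest shG9a_4-only regions had strengths at percentiles 14.3 to 26.4 and mean shSCR folds of 4.88 to 5.27.

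The strongest shG9a_1-only region was at chr14:35805617-35806510, 894 bp wide. Its summit pileups were 20, 24 and 16 fragments in shSCR and 11 and 13 in shG9a_1 replicates 2 and 3, while none was listed with shG9a_4. The second, at chr19:55691436-55691684, had pileups of 15, 17 and 13 in shSCR and of 8 and 10 in shG9a_1. Its background was 1.00, 1.12 and 1.00 times the lowest in the shSCR lists, so it lay where the local background was at or close to the lowest of the library. In both regions each shG9a_1 count was under each shSCR count, before any allowance for depth.

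The next were at chr18:46359313-46359798, with folds of 10.2, 10.0 and 7.78 in shSCR and 6.31 and 6.99 in shG9a_1, and at chr7:80263803-80264126, with 14.4, 11.8 and 6.39 in shSCR and 5.23 and 7.54 in shG9a_1. In the first the values do not overlap, and in the second the lowest shSCR value lies between those of shG9a_1. At chr8:13224242-13224597 the folds were 7.92, 10.3 and 8.63 in shSCR and 5.85 and 4.98 in shG9a_1. At chr19:6373365-6373827 they were 8.29, 10.8 and 9.24 in shSCR and 5.58 and 6.07 in shG9a_1, and at chr12:49365008-49365725 they were 7.48, 8.51 and 9.03 in shSCR and 5.11 and 4.98 in shG9a_1. In these 3 regions every shG9a_1 fold lay under every shSCR fold. The choice for high shSCR strength partly fixes that order here too. Of the 3 on chromosome 1, chr1:209989812-209990212 had 8.09, 10.2 and 6.78 in shSCR and 5.67 and 5.43 in shG9a_1, and chr1:202025726-202026435 had 6.56, 9.01 and 7.60 in shSCR and 6.32 and 4.53 in shG9a_1. The last, at chr1:244211708-244211938, had 7.33, 9.65 and 7.71 in shSCR and 8.70 and 5.98 in shG9a_1. It was the one among them whose shG9a_1 replicate 2 fold lay within the shSCR range. Mean folds of the 10 were 7.73 to 12.0 in shSCR and 5.05 to 7.34 in shG9a_1, with widths of 231 to 894 bp. The 5 weakest shG9a_1-only regions had strengths at percentiles 19.6 to 30.3 and mean shSCR folds of 5.11 to 5.67.

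**Figure D5:**
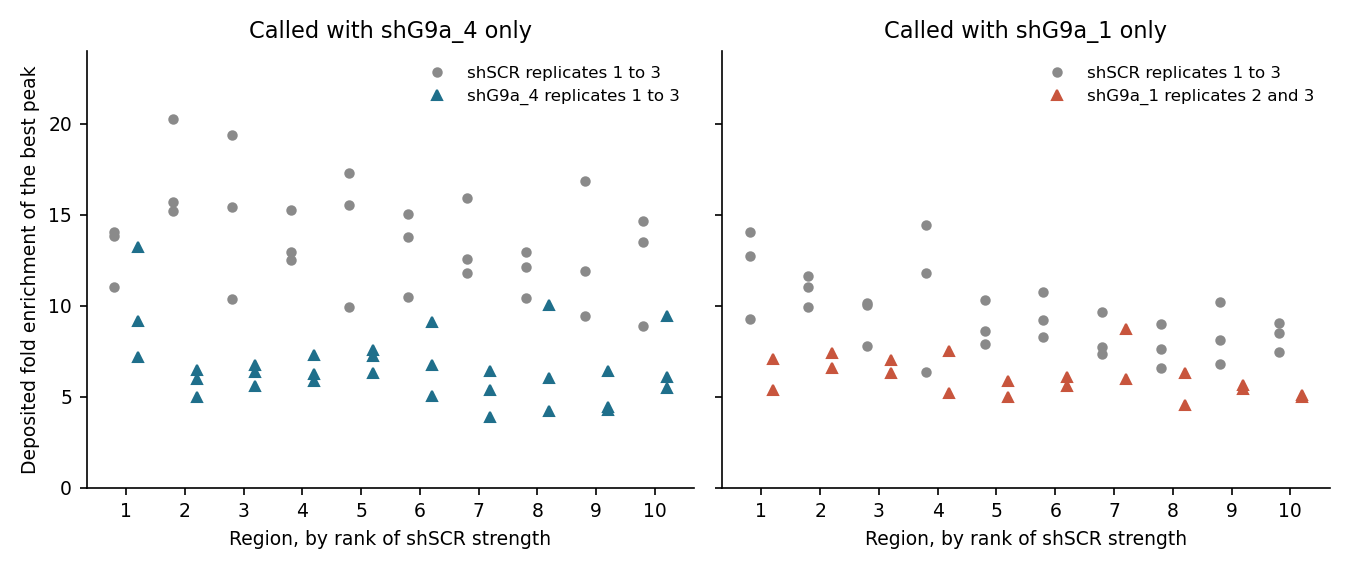
Deposited fold enrichment (vertical axis) of the best peak in each library at the 10 strongest shG9a_4-only regions (left) and the 10 strongest shG9a_1-only regions (right), ordered by shSCR strength (horizontal axis). Grey circles are the 3 shSCR libraries and triangles the libraries of the calling hairpin; libraries of the other hairpin listed no peak and have no symbol.

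The clearest opposite calls were the members at percentile 50 or above in every list of the calling hairpin, a cut chosen after their values were seen. The 21 such shG9a_4-only regions lay on 14 chromosomes and made up 0.596% of the 3521 regions that met the same cut. After the chromosome 1 region above, the highest ranked were at chr5:81692685-81693018, chr10:64875583-64875903 and chr6:27805016-27806271. The first had pileups of 20, 37 and 11 fragments in shSCR and 25, 16 and 20 in shG9a_4. The second had 13, 24 and 13 in shSCR and 14, 20 and 29 in shG9a_4. The third, 1256 bp wide, had 20, 17 and 16 in shSCR and 21, 17 and 19 in shG9a_4. In all 3 the shSCR and shG9a_4 counts overlapped, before any allowance for the greater depth of shG9a_4 replicates 1 and 3. Over the lowest background, the shG9a_4 pileups of the first were 31.4, 33.6 and 19.4, against 44.7, 75.8 and 27.0 in shSCR.

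The 4 shG9a_1-only regions that met the cut were 0.110% of the 3652 that did so in shG9a_1. Besides the second strongest shG9a_1-only region, on chromosome 19, they were at chr5:179222274-179223532, chr17:48739202-48739638 and chr2:131129782-131130439. The chromosome 5 region had pileups of 10, 27 and 11 fragments in shSCR and 14 and 14 in shG9a_1. The chromosome 17 region had 13, 11 and 11 in shSCR and 9 and 12 in shG9a_1, and the chromosome 2 region had 11, 17 and 11 in shSCR and 11 and 10 in shG9a_1. The shG9a_1 counts of the chromosome 5 region lay within the shSCR range, and 1 count of each of the other 2 lay at or within it.

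Members were spread over the genome. Every chromosome from 1 to 22 held shG9a_4-only regions, from 3 on chromosome 21 to 29 on chromosome 1. As a share of the chromosome's regions called in all shSCR lists they ranged from 1.37% on chromosome 12 to 2.75% on chromosomes 6 and 19, around the 2.11% of the whole. shG9a_1-only regions were absent from chromosomes 4, 15 and 21 and reached 1.47% on chromosome 13, where they numbered 4 of 272. With so few regions per chromosome these shares are given as counts only.

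Most members had no other region called in all shSCR lists within 10 kb. Median distance to the nearest such region was 18847 bp for shG9a_4-only and 23432 bp for shG9a_1-only regions, against 21556 bp over all 13997. Such a neighbour lay within 10 kb of 122 shG9a_4-only regions (41.4%) and of 21 shG9a_1-only regions (29.6%), beside 37.0% of all. Of these nearest neighbours, 52 of 122 (42.6%) and 10 of 21 (47.6%) were called with both hairpins, beside 1868 of 5174 (36.1%) over all 13997 regions. Of the 122 neighbours, 2 were themselves shG9a_4-only, the pair on chromosome 5 described above, and none of the 21 was shG9a_1-only. Over all 13997 regions, 123 of the 5174 neighbours were shG9a_4-only and 19 were shG9a_1-only. With shares so small, these counts do not set the members apart. No member had a neighbour of the opposite class within 10 kb.

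The closest members of opposite class were on chromosome 2, 24346 bp apart. The shG9a_4-only one, at chr2:10418546-10418978, had folds of 8.76, 11.4 and 7.21 in shSCR and 5.69, 8.14 and 3.26 in shG9a_4. The shG9a_1-only one, at chr2:10443325-10443952, had folds of 5.19, 4.92 and 6.39 in shSCR and 4.24 and 5.17 in shG9a_1. In both the shSCR and hairpin values overlapped.

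Summits of members fell close to each other in the control and hairpin libraries. The median distance from the summit in shSCR replicate 2 was 42, 48 and 47 bp in the shG9a_4 libraries at shG9a_4-only regions, and 44 and 45 bp in the other shSCR libraries. At shG9a_1-only regions it was 52 and 60 bp in shG9a_1 replicates 2 and 3 and 42 and 55 bp in the other shSCR libraries. When a library had to have a summit within 200 bp of the best shSCR summit, 293 shG9a_4-only and 74 shG9a_1-only regions were found. When absence meant no peak within 1 kb, 241 and 56 were. Most members of both classes therefore had no peak of the other hairpin within 1 kb.

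Which regions were members changed with the limit set on the peaks. With lists limited to a −log10 q of at least 5, 305 regions were shG9a_4-only, but 84 of these were among the 295. At the same limit 41 were shG9a_1-only, of which 13 were among the 71. With each list cut to its 11044 top peaks and shG9a_1 replicate 1 left out, 92 and 29 regions had opposite calls, of which 61 and 10 were members. When 1 shSCR library was left out, 291 to 294 of the 295 and 66 to 71 of the 71 remained members. The rule then asks for fewer calls, which largely fixes this, so it is no measure of stability. shG9a_4-only regions outnumbered shG9a_1-only regions in each of the 19 alternatives run, by 1.35 to 7.44 times. The lowest was the one without shG9a_4 replicate 2, and the one without shG9a_1 replicate 1 repeats the main counts. The 19 do not hold the pair of shG9a_1 replicate 3 and shG9a_4 replicate 1, where the ratio was 0.633. The order of the 2 counts therefore depended on the libraries compared.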

How the data were processed

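Peak lists of 9 MYC ChIP-seq libraries were used; files of the 9 DNA inputs were not analysed here. Tools listed in the submitters' processing notes, with no role, are MACS2 2.1.0, Picard 2.7.1, STAR 2.5.2a and SAMtools 1.3; hg19 and GRCh37 are the builds listed. For caller settings and read filters, the sources used here say nothing. Peaks were deposited per library, not pooled. The deposited files give a score, a fold enrichment (a ratio over local background), a −log10 p and a −log10 q for each peak, all by the authors.

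Peaks on chromosomes 1 to 22 were merged if sharing 1 bp or more. A region counted as called by each library with a peak in it, and the peak with the best q-value stood for the region. Pileup and background were recovered from fold and p, which gave a whole number within 0.001 on the −log10 p scale for 100% of peaks. Relative depth was the lowest background shared by at least 1% of a library's peaks over its shortest peak, and assumes 1 genome size setting for all lists. On simulated data, 100% of pileups, 300 of 300 and 70 of 70 planted regions were recovered. Python 3.11.15, numpy 2.4.6, pandas 2.3.3 and scipy 1.17.1 were used. Intervals are exact Poisson at 95% and cover counting error only.

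Named regions are the 10 of highest strength per class and the closest pair of opposite class. The rule for members, the lists and the alternatives were chosen with earlier results of these data known. No test was run, because the rule used the calls and regions are not replicates. Results planned on promoters, E-box sequence and gene lists were not analysed here.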

Additional observations from a re-analysis of the deposited data

How the results depend on the processing

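The count of shG9a_4-only regions (295) stayed within 1.5 times of itself in 13 of 19 alternatives and that of shG9a_1-only regions (71) in 9. With a −log10 q of at least 5 the shG9a_1-only count was 41, and with at least 2 shSCR lists it was 137. With equal peak numbers, without shG9a_1 replicate 1, the counts were 92 and 29, by construction from fewer peaks. With the 5 libraries of like depth they were 2676 and 886, by construction from 1 library per hairpin. Leaving out 1 library at a time gave 295 to 996 and 71 to 360. With a library out the rule asks for fewer calls or fewer absences. Median strength (60.3 and 50.1) moved by less than the spread between shSCR lists when ranked by fold (58.0 and 50.6) or without 1 shSCR list (57.9 to 68.0 and 50.1 to 59.2). No paired analysis was possible because the results come from no test. Shares of promoters and E-boxes, under any window, were not run. A list shows peaks that passed the caller, so a missing call means only that no peak was detectable in that library.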

Other observations

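Outside chromosomes 1 to 22, chromosome X held 212 regions called in all shSCR lists, of which 1 was called with shG9a_4 only and 1 with shG9a_1 only. The first, at chrX:122866592-122867050, had folds of 6.22, 3.01 and 4.97 in shSCR and 5.93, 8.80 and 5.61 in shG9a_4, which overlap. The second, at chrX:131156882-131157464, had 8.23, 8.40 and 7.70 in shSCR and 4.38 and 5.40 in shG9a_1, which do not. None of the 9 such regions on unplaced or mitochondrial sequence had opposite calls.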
